A study of Arabidopsis thaliana with 8 samples.

Results

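Seedlings of 2 lines, each a double mutant for the pyruvate dehydrogenase complex (PDC), were compared in air, without ethylene: e2-2 e3-2-2 line #67, called e2e3 here, against e1-2-2 e2-2 line #17, called e1e2 here. The contrast is between 4 of the 8 libraries of the series, within a fit of all 8. They were found by joining the count tables on the gene identifier and taking the replicate 1 and 2 libraries of each line that the labels give as air. All 4 came from whole Arabidopsis thaliana seedlings on MS plates with 1% sucrose, kept for 3 days in the dark at 22 °C in a flow of hydrocarbon-free air. Both lines carry e2-2, so their labels differ in having e1-2-2 or e3-2-2. Each genotype is a single line with a line number, so a difference between the genotypes cannot be told apart from any other difference between these lines. The labels do not tie the alleles to loci, and a wild-type group was not analysed here. The other 4 libraries are the same lines in 10 ppm ethylene for a time that the labels do not give. By its title, the series asks about nuclear PDC, histone acetylation directed by EIN2 and the transcriptional response to ethylene.

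PDC links glycolysis to acetyl-CoA. Its E1 component, made of alpha and beta chains, decarboxylates pyruvate, E2 passes the acetyl group to coenzyme A, and E3, dihydrolipoamide dehydrogenase, reoxidises the lipoyl arm of E2. In plant mitochondria the same E3 proteins also serve the 2-oxoglutarate dehydrogenase, branched-chain 2-oxoacid dehydrogenase and glycine decarboxylase complexes, whereas plastids hold a PDC of their own that feeds fatty acid synthesis. Dark-grown seedlings live on stored oil and on the sugar of the plate, keep their plastids as etioplasts, and elongate the hypocotyl by expanding cells.

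The air libraries held 11522823 and 12728015 counts in e1e2 and 14480759 and 18601837 counts in e2e3. Across the series, 20193 of the 36799 genes passed the filter on low counts, replicates correlated at 0.991 to 0.9933 in log CPM across genes, and a principal component with 11.4% of the variance set the lines apart, after a first one with 64.7% that set the gases apart. Replicates in every group differed by more than counting noise, with a mean chi-square per gene of 1.42 to 1.97. Nothing in the labels tells whether the replicates were planted separately, so the p-values measure only the spread between these libraries, which may be technical. For any 1 gene, that spread was mostly an estimate pooled over genes and over all 8 libraries. Levels are in CPM, counts as a rate over the TMM-scaled library size. They compare libraries, not genes, since they are not per length. A difference is e2e3 minus e1e2 on the log2 scale, with its standard error (SE), and "called" means an adjusted p under 0.05 by the quasi-likelihood test of edgeR, with the Benjamini-Hochberg method applied over all genes tested. Seedlings were sequenced whole, so fewer cells of a type and less RNA per cell cannot be told apart for any gene below.

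The 2 lines differed in many genes by small amounts. Of the genes tested, 1818 (9.0%) were higher in e2e3 and 1177 (5.83%) were lower, and the median called difference was 1.21-fold. Only 59 genes (0.292%) were at least 2-fold higher and 64 (0.317%) at least 2-fold lower. Scaling by library size alone called 1184 higher and 1756 lower, so the split into higher and lower depended on the scaling, while the median of all genes moved from 0.011 to -0.037 on the log2 scale. DESeq2 called 941 higher and 542 lower. Leaving out e2e3 replicate 1 left 1183 higher genes, and leaving out e2e3 replicate 2 left 1039.

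Among the mitochondrial PDC genes, 2 set the lines far apart, in opposite directions. E1 ALPHA (AT1G59900, TAIR10 chromosome 1, 22051133 to 22053885, plus strand), which encodes the E1 alpha chain, stood at 23.1 and 22.1 CPM in e1e2 and 229.9 and 231 CPM in e2e3. Both e1e2 libraries were far below both e2e3 libraries, a 10.2-fold difference with a log2 value of 3.35 (SE 0.06, adjusted p = 3.07e-129). The order was the opposite for mtLPD2 (AT3G17240, chromosome 3, 5889663 to 5892332, minus strand), which encodes an E3 protein, at 138 and 131 CPM in e1e2 and 27.4 and 27.9 CPM in e2e3. Its log2 difference was -2.28 (SE 0.06, adjusted p = 3.63e-94), a level 4.85-fold lower in e2e3. Neither gene was at 0 in the line where it was low. The 3′ end of E1 ALPHA overlaps that of AT1G59910 on the other strand, and the counting was unstranded. The difference of AT1G59910 was 0.20 (SE 0.07, adjusted p = 0.0392).

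The other subunit genes differed little. IAR4, a second E1 alpha gene, stood at 141 and 148 CPM in e1e2 and 164 and 165 CPM in e2e3, a difference of 0.18 (SE 0.04, adjusted p = 0.000699). The E2 gene AT3G13930 gave 0.16 (SE 0.04, adjusted p = 0.00281) and the E2 gene LTA3 gave 0.16 (SE 0.05, adjusted p = 0.0201), both higher in e2e3, with the e2e3 libraries above the e1e2 libraries in each case. LTA3 was not called under library size scaling, in DESeq2 or without any 1 of the air libraries, IAR4 was not called without e1e2 replicate 1, and AT3G13930 was not called without e2e3 replicate 2. MAB1, the E1 beta gene, stood at 230.3 and 239 CPM in e1e2 and 246 and 251 CPM in e2e3 and was not called (adjusted p = 0.16). For mtLPD1, the partner of mtLPD2, the libraries overlapped at 142 and 152 CPM in e1e2 and 148 and 148 CPM in e2e3, and for the E2 gene AT1G54220 they overlapped at 17.1 and 18.7 CPM in e1e2 and 17.6 and 17.5 CPM in e2e3. The log2 difference of mtLPD1 was 0.01 (SE 0.04, adjusted p = 0.962), and its sign turned under library size scaling. In ethylene, E1 ALPHA stood at 20.2 and 19.2 CPM in e1e2 and 216 and 214 CPM in e2e3 and mtLPD2 at 149 and 150.3 CPM in e1e2 and 36.4 and 40.4 CPM in e2e3. Both gaps were thus present in libraries outside the air contrast. None of the 7 tested genes of the plastid PDC was called in edgeR with TMM scaling or in DESeq2 and 1 was lower in edgeR under library size scaling, with 1 at an unadjusted p under 0.05 in edgeR, at a list median of -0.03.

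**Figure D1:**
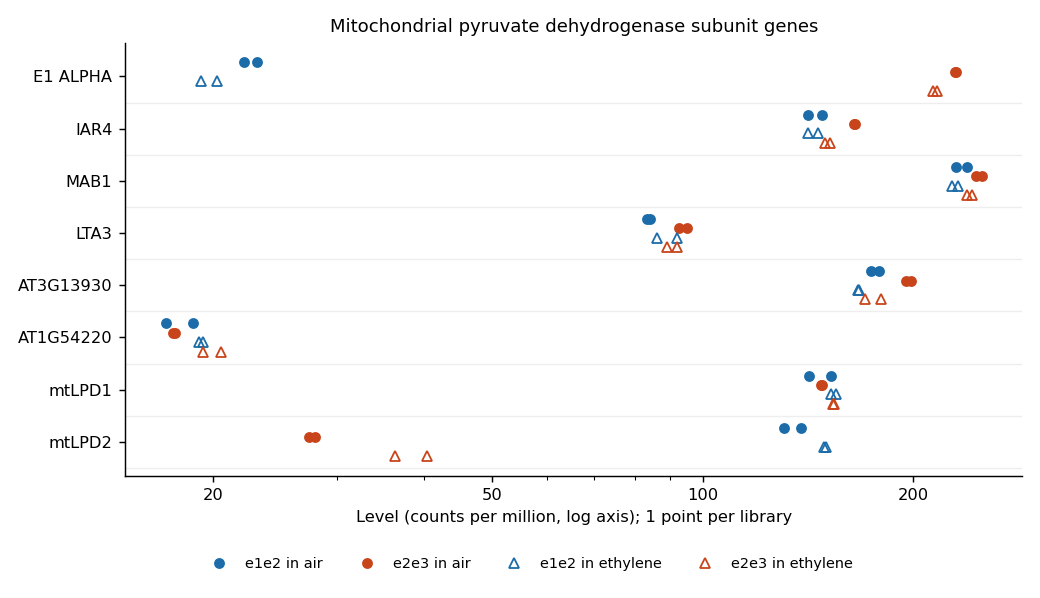
Levels of the 8 mitochondrial PDC subunit genes in CPM on a log axis, 1 point per library, with circles for air and triangles for ethylene, blue for e1e2 and orange for e2e3. E1 ALPHA is low in e1e2 and mtLPD2 is low in e2e3 in both gases, while the other 6 genes lie close together.

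The list of the other mitochondrial complexes that use E3 also holds SHM1, whose enzyme is not part of them. In this list 8 of 16 tested genes, SHM1 included, were lower in e2e3 and 3 were higher, against 5.83% lower and 9.0% higher among all genes. Without e2e3 replicate 1 the count was 4 lower and 2 higher, without e2e3 replicate 2 it was 6 lower and 0 higher, and in DESeq2 it was 5 lower and 1 higher. The branched-chain 2-oxoacid dehydrogenase, which breaks down leucine, isoleucine and valine, gave the largest decreases. Its E1 alpha gene AT1G21400 stood at 55.4 and 54 CPM in e1e2 and 41.5 and 44.5 CPM in e2e3, a difference of -0.34 (SE 0.07, adjusted p = 1.10e-05). Its E2 gene DIN3 (AT3G06850) gave -0.33 (SE 0.06, adjusted p = 7.69e-06) and its E1 beta gene DIN4 (AT3G13450) gave -0.24 (SE 0.07, adjusted p = 0.0106), whereas the second E1 alpha gene AT5G09300, at 8.39 and 10.4 CPM in e1e2 and 12.1 and 12.9 CPM in e2e3, was higher by 0.41 (SE 0.14, adjusted p = 0.0267). Of the glycine decarboxylase genes, GDCH, GLDT, GLDP1 and GLDH3 were lower by small amounts, with log2 differences of -0.17, -0.16, -0.15 and -0.13. SHM1, the serine hydroxymethyltransferase that works beside them, gave -0.19 (SE 0.04, adjusted p = 0.000329). The 2-oxoglutarate dehydrogenase genes went the other way where they were called, with 0.18 (SE 0.04, adjusted p = 0.00118) for the E1 gene AT3G55410 and 0.21 (SE 0.06, adjusted p = 0.00601) for the E2 gene AT4G26910.

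Of 14 genes that regulate PDC, bring pyruvate to the mitochondrion or replace its products, 6 were called higher and 1 lower, against 9.0% and 5.83% of all genes. That split rested on the scaling and on single libraries. It was 3 higher and 2 lower under library size scaling, 3 higher and 0 lower in DESeq2, 1 and 1 without e1e2 replicate 2, 2 and 0 without e2e3 replicate 1, and 2 and 1 without e2e3 replicate 2. NADP-ME1, a cytosolic malic enzyme, stood at 48.1 and 48.7 CPM in e1e2 and 66.5 and 60.2 CPM in e2e3, a difference of 0.38 (SE 0.07, adjusted p = 5.34e-07). MPC1, a subunit of the mitochondrial pyruvate carrier, gave 0.20 (SE 0.06, adjusted p = 0.00728), and the phosphoenolpyruvate carboxylase genes PPC1 and PPC3 gave 0.15 and 0.16. In all, 6 of 23 TCA cycle and ATP-citrate lyase genes were higher and none was lower, against 9.0% and 5.83% of all genes, and the list median of 0.09 compares with 0.01 over all genes. The aconitase gene ACO3 (AT2G05710) led them with 588 and 581 CPM in e1e2 and 694 and 706 CPM in e2e3, a difference of 0.26 (SE 0.03, adjusted p = 7.28e-11). These increases were small. The count of 6 was 4 under library size scaling and 3 without e1e2 replicate 2, without e2e3 replicate 2 or in DESeq2.

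Fermentation genes showed 1 large change. PDC1 (AT4G33070), a pyruvate decarboxylase that makes acetaldehyde from pyruvate, stood at 11.8 and 12.9 CPM in e1e2 and 47.3 and 49.4 CPM in e2e3, 3.9-fold higher in e2e3 with a log2 difference of 1.96 (SE 0.09, adjusted p = 2.91e-52). Another pyruvate decarboxylase gene, PDC3 (AT5G01330), gave 0.27 (SE 0.07, adjusted p = 0.00144), lactate dehydrogenase (LDH, AT4G17260) gave 0.32 (SE 0.10, adjusted p = 0.0163) and the mitochondrial aldehyde dehydrogenase gene ALDH2B4 gave 0.12 (SE 0.04, adjusted p = 0.0291). ADH1, the alcohol dehydrogenase that follows pyruvate decarboxylase, was not called at 11.6 and 12.8 CPM in e1e2 and 14.4 and 15.2 CPM in e2e3 (adjusted p = 0.102). In all, 4 of 14 genes of this list were higher and none was lower, against 9.0% and 5.83% of all genes. The count was 2 higher under library size scaling, 1 in DESeq2 and 1 without e2e3 replicate 1.

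PDC1 and LDH are also known for induction by low oxygen. They were counted above and are not in the hypoxia list. Of the 14 tested genes of that list 2 (14.3%) were called, both higher, a share near the 14.8% of all genes. An unadjusted p under 0.05 in edgeR was found for 5 of them, against 25.6% of all genes. DESeq2 called 1 higher and gave no adjusted p for 4. FTM1 (SAD6, AT1G43800), a stearoyl-ACP desaturase gene, stood at 1.32 and 1.18 CPM in e1e2 and 4.81 and 5.4 CPM in e2e3, a difference of 2.03 (SE 0.28, adjusted p = 7.06e-10), and RAP2.12, an oxygen-regulated transcription factor, gave 0.17 (SE 0.04, adjusted p = 0.000339). The haemoglobin gene HB1, the oxygen-sensing oxidase genes PCO1 and PCO2, HRE1 and LBD41 were not called, with log2 differences from -0.43 to 0.15.

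Of 16 tested genes that respond to mitochondrial dysfunction, 5 were higher in e2e3 and none was lower, against 9.0% and 5.83% of all genes. All 5 stayed called in DESeq2 and under library size scaling. UGT74E2, a glucosyltransferase gene, stood at 44.4 and 41.7 CPM in e1e2 and 77.1 and 79.9 CPM in e2e3, a difference of 0.87 (SE 0.06, adjusted p = 1.42e-28). BCS1 (OM66), which encodes a protein of the outer mitochondrial membrane, stood at 11.4 and 12.8 CPM in e1e2 and 19.6 and 21.3 CPM in e2e3, a difference of 0.76 (SE 0.12, adjusted p = 6.00e-08). AOX1A, the main alternative oxidase gene, gave 0.24 (SE 0.05, adjusted p = 5.22e-05) from 98.1 and 98.2 CPM in e1e2 and 116 and 116 CPM in e2e3. AT2G41730 gave 0.50 and the MATE transporter gene AT2G04050 gave 0.37. The e2e3 libraries lay above the e1e2 libraries for all 5. The regulators NAC013 and NAC017 were not called, nor was AOX1D, a second alternative oxidase gene, which lay under 1 CPM in every air library.

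Photosynthesis genes were lower in e2e3 throughout the list. All 42 tested nuclear genes for light-harvesting proteins, photosystem subunits, plastocyanin, Rubisco small subunits and Rubisco activase were lower in e2e3, against 5.83% of all genes tested, with a median log2 difference of -0.30. In every one of them both e2e3 libraries lay below both e1e2 libraries, against 23.6% of all genes. Another member, LHCB1.5, had 0 counts in all 4 air libraries and was not tested. The count stayed at 42 under library size scaling and was 41 in DESeq2. The 42 genes together held 25804 and 25135 CPM in e1e2 and 19922 and 20862 CPM in e2e3.

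The light-harvesting genes of photosystem II gave the largest values. CAB1 (LHCB1.3, AT1G29930, chromosome 1, 10477885 to 10479114) stood at 4573 and 4442 CPM in e1e2 and 3188 and 3291 CPM in e2e3, a difference of -0.48 (SE 0.03, adjusted p = 8.05e-32). LHB1B1 (LHCB1.4, AT2G34430) stood at 67.3 and 64.8 CPM in e1e2 and 28.2 and 29.7 CPM in e2e3, a difference of -1.18 (SE 0.07, adjusted p = 3.71e-37), and LHCB2.3 at 70.2 and 68.6 CPM in e1e2 and 37.2 and 44.6 CPM in e2e3, a difference of -0.75 (SE 0.07, adjusted p = 5.04e-20). The LHCB1 and Rubisco small subunit genes are near-identical copies within their families, and the counting left out reads that map to several places, so the split among copies is uncertain. Single-copy members moved the same way: LHCB6 (AT1G15820) stood at 545 and 514 CPM in e1e2 and 386 and 394 CPM in e2e3, a difference of -0.44 (SE 0.04, adjusted p = 1.03e-23), and the photosystem I antenna gene LHCA1 at 463 and 449 CPM in e1e2 and 321 and 331 CPM in e2e3, a difference of -0.48 (SE 0.04, adjusted p = 8.94e-27). The smallest difference was that of RBCS2B (AT5G38420), at 1010.0 and 957 CPM in e1e2 and 879 and 944 CPM in e2e3 and -0.11 (SE 0.03, adjusted p = 0.0148).

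Chlorophyll synthesis genes fell as well. Of 19 tested tetrapyrrole genes 15 were lower and none was higher, against 5.83% and 9.0% of all genes, with a list median of -0.22. GUN5 (CHLH, AT5G13630), a subunit of the magnesium chelatase, stood at 534 and 496 CPM in e1e2 and 383 and 408 CPM in e2e3, a difference of -0.38 (SE 0.04, adjusted p = 1.29e-18). CAO, which makes chlorophyll b, gave -0.37 (SE 0.06, adjusted p = 6.00e-07), and CHLM, a methyltransferase of the chlorophyll branch, gave -0.36 (SE 0.04, adjusted p = 3.76e-13). PORA (AT5G54190), the protochlorophyllide oxidoreductase typical of etioplasts, stood at 1576 and 1456 CPM in e1e2 and 1284 and 1329 CPM in e2e3, a difference of -0.21 (SE 0.03, adjusted p = 3.76e-08).

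Light-response genes did not move with them as a list, with 16.7% called, near the 14.8% of all genes. Of 18 tested, 2 were lower and 1 was higher, with none called without e1e2 replicate 1, and the list summed to 2085 and 2017 CPM in e1e2 and to 2050 and 2078 CPM in e2e3. ELIP2, an early light-induced gene, stood at 8.3 and 5.99 CPM in e1e2 and 3.95 and 4.62 CPM in e2e3, a difference of -0.71 (SE 0.19, adjusted p = 0.00217), and GLK2, a transcription factor for chloroplast genes, at 45.8 and 41.4 CPM in e1e2 and 33.1 and 37.7 CPM in e2e3, a difference of -0.29 (SE 0.08, adjusted p = 0.00323). PIF3, a dark-growth factor, gave 0.12 (SE 0.04, adjusted p = 0.0466). Whether light reached any plate was not tested.

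Upstream stretches of 3 photosynthesis genes that fell are printed to show the motifs, for which they were picked, and that of LHB1B1 because it had the largest decrease of the list. They are the 200 bases before the annotated start, read 5′ to 3′ on the gene's strand from the TAIR10.1 RefSeq genome. Capitals mark the G-box CACGTG and the GATA-type I-box GATAAG, the latter also in its reverse complement.
LHCB6, chr1:5447881-5448080, minus strand: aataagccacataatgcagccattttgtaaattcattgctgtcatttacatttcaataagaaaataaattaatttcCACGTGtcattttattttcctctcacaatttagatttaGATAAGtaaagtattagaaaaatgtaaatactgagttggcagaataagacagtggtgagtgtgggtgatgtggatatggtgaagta
PSBQ-2, chr4:2673244-2673443, minus strand: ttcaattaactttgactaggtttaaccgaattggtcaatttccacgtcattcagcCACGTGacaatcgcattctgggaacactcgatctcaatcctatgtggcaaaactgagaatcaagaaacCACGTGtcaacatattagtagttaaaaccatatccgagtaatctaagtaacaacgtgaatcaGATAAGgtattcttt
RBCS2B, chr5:15382072-15382271, minus strand: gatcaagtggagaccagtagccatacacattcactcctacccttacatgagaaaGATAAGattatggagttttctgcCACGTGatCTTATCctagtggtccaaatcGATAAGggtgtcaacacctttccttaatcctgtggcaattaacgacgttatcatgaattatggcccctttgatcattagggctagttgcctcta
LHB1B1, chr2:14524407-14524606, plus strand: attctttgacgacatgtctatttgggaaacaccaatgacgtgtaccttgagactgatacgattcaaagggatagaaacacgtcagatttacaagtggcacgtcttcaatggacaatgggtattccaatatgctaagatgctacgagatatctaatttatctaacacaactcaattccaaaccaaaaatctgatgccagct
PSBQ-2, a subunit gene of the oxygen-evolving complex, held the G-box at 145 and 77 bases before the start and GATAAG at 15, while the LHB1B1 stretch held neither motif. Over windows from 250 bases before to 50 bases after the start, searched on both strands, GATAAG was in 22 of the 42 photosynthesis genes (52.4%), in 22.3% of the 1144 windows of genes called lower, in 13.5% of the 1811 of genes called higher and in 14.7% of all 19601 windows. CACGTG was in 31.0%, 10.5%, 9.11% and 9.14% of the same sets. Within the photosynthesis list the median log2 difference was -0.28 for the 22 genes with GATAAG and -0.36 for the 20 without it. Any link between the motif and the size of the decrease was not tested. The evening element AATATCT was in 12.2% of lower, 12.1% of higher and 11.6% of all windows, the GCC box GCCGCC in 2.53%, 1.88% and 2.57%, and the heat shock core GAANNTTC in 10.1%, 11.4% and 11.3%. A match is a run of letters and was not tested as a binding site.

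**Figure D2:**
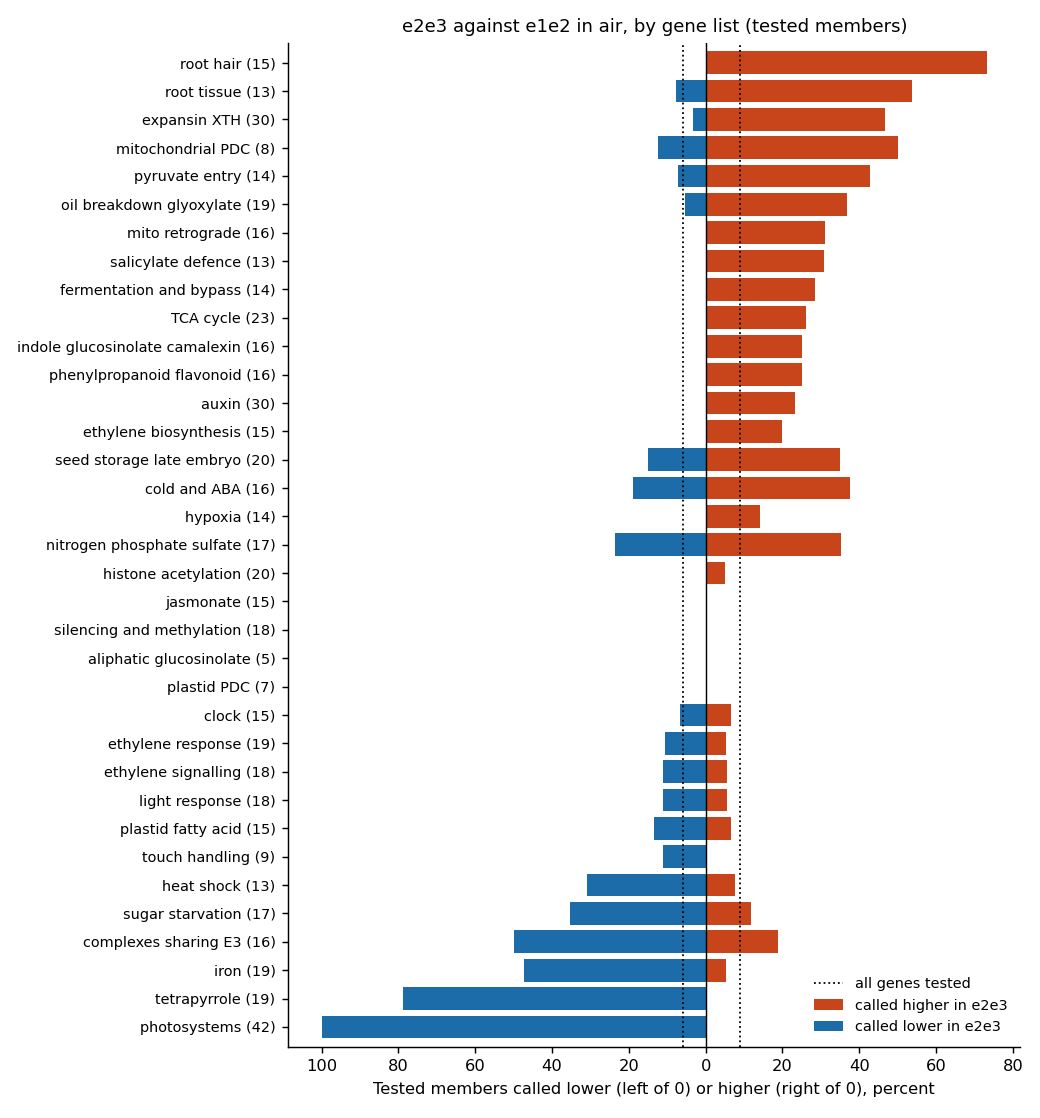
Share of the tested members of each gene list called higher (orange, right of 0) or lower (blue, left of 0) in e2e3 against e1e2 in air, in percent, with the number tested in brackets. The dotted lines mark the shares over all genes tested, 9.0% and 5.83%. Photosystem, tetrapyrrole and iron lists lie far to the left, root hair, root tissue and expansin lists to the right.

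Root hair genes were higher in e2e3. Of 15 tested root hair genes, 11 were higher and none was lower, against 9.0% higher among all genes, with a list median of 0.35, and the list summed to 441 and 415 CPM in e1e2 and 542 and 574 CPM in e2e3. RHS18, a peroxidase gene, stood at 8.83 and 10.4 CPM in e1e2 and 15.7 and 16.3 CPM in e2e3, a difference of 0.73 (SE 0.13, adjusted p = 9.65e-07), and the wall protein gene PRP3 at 84.9 and 84.1 CPM in e1e2 and 127 and 140.4 CPM in e2e3, a difference of 0.67 (SE 0.05, adjusted p = 4.44e-27). LRX1, a leucine-rich repeat extensin of root hairs, stood at 39.2 and 35.9 CPM in e1e2 and 54.8 and 63.2 CPM in e2e3, a difference of 0.66 (SE 0.07, adjusted p = 1.28e-15). The transcription factors RSL2 and RSL4, which drive hair growth, gave 0.62 (SE 0.19, adjusted p = 0.0103) and 0.58 (SE 0.20, adjusted p = 0.0291). RHD6, which acts before them, was not called at 4.95 and 3.94 CPM in e1e2 and 4.67 and 4.67 CPM in e2e3. The count of 11 was 8 under library size scaling and 7 in DESeq2. It was 7 without e1e2 replicate 2, 7 without e2e3 replicate 1 and 6 without e2e3 replicate 2.

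Of 13 tested markers of root tissues, 7 were higher and 1 was lower, against 9.0% and 5.83% of all genes. CASP1, a Casparian strip protein of the endodermis, stood at 230.2 and 224 CPM in e1e2 and 295 and 286 CPM in e2e3, a difference of 0.36 (SE 0.04, adjusted p = 7.82e-15), and CASP2 to CASP5 were called with log2 differences from 0.20 for CASP4 to 0.29 for CASP2. PYK10, an abundant beta-glucosidase of roots and hypocotyls, stood at 9503 and 9193 CPM in e1e2 and 10870.0 and 11000.0 CPM in e2e3, a difference of 0.23 (SE 0.03, adjusted p = 6.49e-10). The root meristem genes WOX5, PLT1 and PLT2 lay at 2.21 CPM or less in all 4 libraries and were not called, and neither were SHR and SCR, which pattern the inner root. The sulfate transporter gene SULTR1;2 was the lower one, at -0.12 (SE 0.04, adjusted p = 0.0296). The whole list summed to 10565 and 10217 CPM in e1e2 and 12047 and 12186 CPM in e2e3, of which PYK10 made up most. The part that the share of root RNA in the seedlings may have in this difference, or in the decrease of the photosynthesis genes, was not tested.

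In the cell wall loosening list the calls were mostly higher. Of 30 expansin and xyloglucan endotransglucosylase genes, 14 were called higher and 1 lower, against 9.0% and 5.83% of all genes. EXPA7 and EXPA18 are in the root hair list too. EXPA8 stood at 279 and 276 CPM in e1e2 and 398 and 411 CPM in e2e3, a difference of 0.54 (SE 0.04, adjusted p = 1.46e-30). XTH4 stood at 1347 and 1309 CPM in e1e2 and 1771 and 1852 CPM in e2e3, a difference of 0.45 (SE 0.03, adjusted p = 6.84e-28), and XTH17 gave 0.39. The touch gene XTH22 (TCH4) was the lower one, at -0.27 (SE 0.07, adjusted p = 0.00288), and it was also the only one of 9 tested touch and handling genes to be called. The count of 14 was 11 under library size scaling, 10 in DESeq2 and 9 without e2e3 replicate 2.

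Auxin genes gave 7 higher and none lower of 30, against 9.0% and 5.83% of all genes. GH3.3, an early auxin gene that conjugates auxin to amino acids, stood at 18.6 and 15.9 CPM in e1e2 and 28.8 and 33.2 CPM in e2e3, a difference of 0.86 (SE 0.10, adjusted p = 2.87e-13). DFL1 (GH3.6) gave 0.43 (SE 0.06, adjusted p = 3.57e-09), GH3.5 gave 0.20, and the repressor genes IAA7 and IAA17 gave 0.20 and 0.30. ARF7 and PIN7, a response factor and an auxin exporter, gave 0.24 and 0.15.

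Iron uptake genes were lower in e2e3. Of 19 tested iron genes 9 were lower and 1 was higher, against 5.83% and 9.0% of all genes, and the list median was -0.49. IRT1 (AT4G19690), the root iron importer, stood at 41.6 and 39.2 CPM in e1e2 and 11.7 and 11.2 CPM in e2e3, 3.54-fold lower in e2e3 with a log2 difference of -1.82 (SE 0.09, adjusted p = 1.94e-46). FRO2, the ferric reductase that works with it, stood at 15.1 and 14.3 CPM in e1e2 and 3.81 and 2.98 CPM in e2e3, a difference of -2.13 (SE 0.16, adjusted p = 2.00e-26). CYP82C4, a cytochrome P450 gene of coumarin synthesis that is low here, stood at 2.47 and 2.92 CPM in e1e2 and 0.503 and 0.45 CPM in e2e3, a difference of -2.49 (SE 0.39, adjusted p = 6.38e-08).

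Their regulators were lower by less. FIT1, the transcription factor that activates IRT1 and FRO2, stood at 18.1 and 17.2 CPM in e1e2 and 10.6 and 14.2 CPM in e2e3, a difference of -0.49 (SE 0.12, adjusted p = 0.0011), and its partner BHLH39 at 11.5 and 8.98 CPM in e1e2 and 5.89 and 6.3 CPM in e2e3, a difference of -0.73 (SE 0.16, adjusted p = 0.000152). The partners BHLH38 and BHLH101 had both e2e3 libraries below both e1e2 libraries and were not called, at -0.72 and -0.52. NAS2, a nicotianamine synthase gene, gave -1.12 (SE 0.19, adjusted p = 4.49e-07), NAS1 gave -0.44 (SE 0.12, adjusted p = 0.00509), the phloem transporter gene OPT3 gave -0.28 (SE 0.07, adjusted p = 0.000517) and the signal peptide gene IMA2, near 2 CPM, gave -0.99 (SE 0.36, adjusted p = 0.0427). FER1, which encodes the iron store ferritin, was the higher one at 487 and 464 CPM in e1e2 and 516 and 535 CPM in e2e3, a difference of 0.14 (SE 0.04, adjusted p = 0.000972). Iron uptake genes are active in the root epidermis. The root hair list was higher in the same comparison, and any link between these lists, or with the share of root RNA, was not tested. The count of 9 stayed 9 under library size scaling and was 6 in DESeq2, which gave no adjusted p for 5 of the 19.

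**Figure D3:**
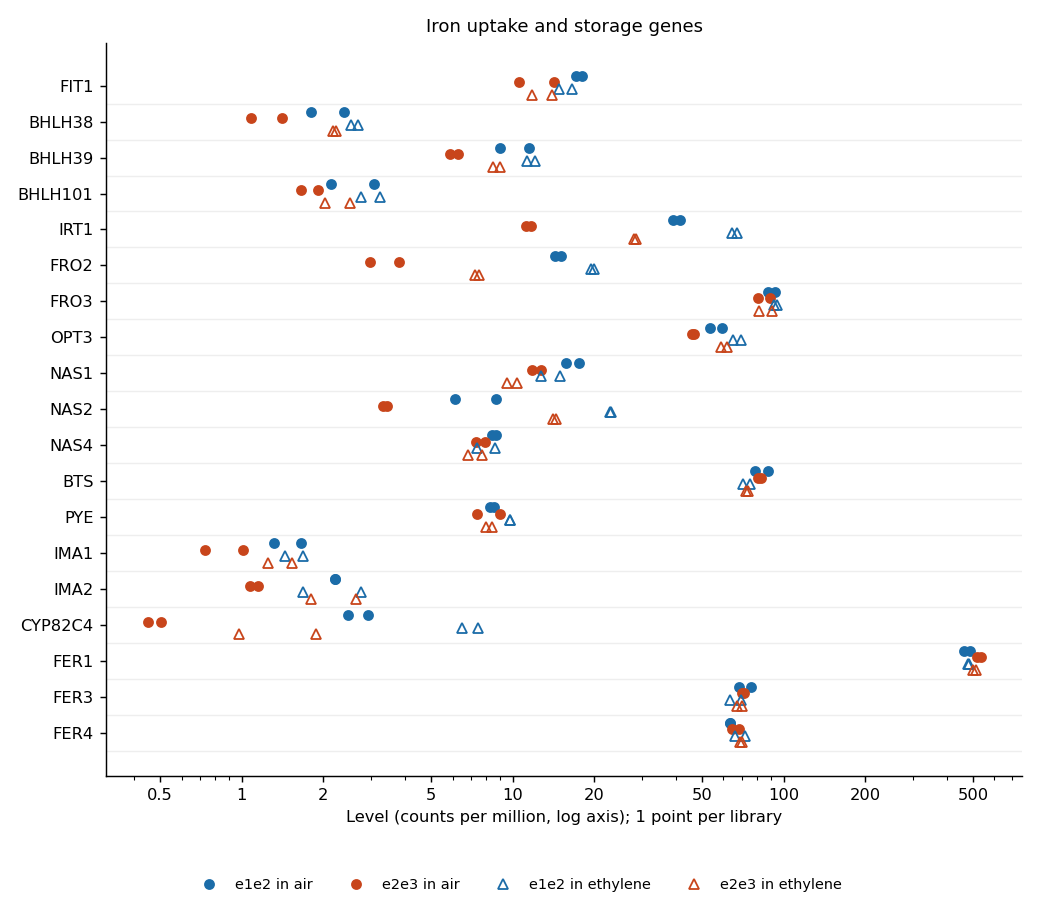
Levels of the 19 tested iron genes in CPM on a log axis, 1 point per library, with circles for air and triangles for ethylene, blue for e1e2 and orange for e2e3. IRT1, FRO2 and CYP82C4 are lower in e2e3 in both gases, and the ferritin genes at the bottom lie close together.

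Late embryo genes were split. Of 20 tested seed storage and late embryo genes 7 were higher and 3 were lower, against 9.0% and 5.83% of all genes, with 4 higher without e1e2 replicate 1 and 5 lower without e2e3 replicate 1. The lower ones were albumin genes: SESA3 stood at 48.9 and 45.1 CPM in e1e2 and 29.9 and 20.7 CPM in e2e3, a difference of -0.92 (SE 0.10, adjusted p = 7.77e-09), SESA2 at 31.5 and 43.2 CPM in e1e2 and 24.1 and 21.5 CPM in e2e3, a difference of -0.73 (SE 0.09, adjusted p = 2.66e-11), and SESA1 gave -0.75 (SE 0.19, adjusted p = 0.00127). The higher ones included OLEO2, an oil body protein gene, at 65 and 70.8 CPM in e1e2 and 102 and 96.6 CPM in e2e3, a difference of 0.54 (SE 0.06, adjusted p = 1.34e-15), LEA4-5 at 0.38 (SE 0.04, adjusted p = 3.31e-13) and PER1, a seed peroxiredoxin gene, at 0.38 (SE 0.06, adjusted p = 1.26e-07). Storage albumin genes are expressed during seed filling, and whether the transcripts counted here were left over from it was not tested. The part of seedling stage in these values was not tested either.

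Genes of abscisic acid and cold were split as well, with 6 of 16 higher and 3 lower, and 3 higher and 3 lower without e2e3 replicate 1. RD29B, a marker of abscisic acid, stood at 451 and 436 CPM in e1e2 and 637 and 644 CPM in e2e3, a difference of 0.53 (SE 0.04, adjusted p = 6.54e-33), and LTI30, RAB18, ABI1, ABI2 and HAI1 were higher by 0.14 to 0.32. KIN2, a cold gene, went down from 215 and 222 CPM in e1e2 to 166 and 164 CPM in e2e3, a difference of -0.40 (SE 0.04, adjusted p = 2.89e-16). The cold regulators CBF1, CBF2 and CBF3 were not called. In shares, the abscisic acid and cold list held 37.5% higher and 18.8% lower, against 9.0% and 5.83% of all genes. Of 19 genes of oil breakdown and the glyoxylate cycle, 7 were higher and 1 was lower, against 9.0% and 5.83% of all genes. The higher count was 3 without e1e2 replicate 2, 2 without e2e3 replicate 2 and 5 under library size scaling. Malate synthase (MLS) stood at 781 and 759 CPM in e1e2 and 834 and 858 CPM in e2e3, a difference of 0.14 (SE 0.03, adjusted p = 0.00131), the acyl-CoA synthetase gene LACS6 gave 0.23 (SE 0.05, adjusted p = 6.11e-05), and the peroxisomal malate dehydrogenase genes PMDH1 and PMDH2 moved in opposite directions, at 0.17 and -0.23.

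Nutrient and sugar genes gave calls in both directions. NIA1, a nitrate reductase gene, stood at 342 and 333 CPM in e1e2 and 244 and 247 CPM in e2e3, a difference of -0.46 (SE 0.04, adjusted p = 1.28e-23), while the nitrate transporter gene NRT1.1 gave 0.17 (SE 0.03, adjusted p = 5.70e-05). The sulfate uptake gene SULTR1;1 stood at 8.75 and 6.3 CPM in e1e2 and 11.1 and 12.9 CPM in e2e3, a difference of 0.69 (SE 0.15, adjusted p = 0.000188), and the sulfate reductase genes APR1 and APR3 gave 0.40 and 0.25. Of 17 sugar starvation genes 6 were lower and 2 were higher, against 5.83% and 9.0% of all genes. SEN5 (AT3G15450) stood at 401 and 389 CPM in e1e2 and 289 and 299.6 CPM in e2e3, a difference of -0.42 (SE 0.04, adjusted p = 9.10e-22), TPS11 gave -0.30 (SE 0.05, adjusted p = 2.11e-08), and DIN2 (AT3G60140), a beta-glucosidase gene, went up at 0.57 (SE 0.08, adjusted p = 2.94e-09). Under library size scaling 9 of that list were lower.

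Defence chemistry gave a few changes from very low levels. CYP71A12, an enzyme of camalexin and related indoles, stood at 0.53 and 1.18 CPM in e1e2 and 6.82 and 3.43 CPM in e2e3, a difference of 2.51 (SE 0.33, adjusted p = 1.57e-10). PAD3, the last enzyme of camalexin synthesis, stood at 1.41 and 2.76 CPM in e1e2 and 5.39 and 4.33 CPM in e2e3, a difference of 1.18 (SE 0.27, adjusted p = 0.000253). CYP71A13, a close relative of CYP71A12, had 0 counts in both e1e2 libraries and 17 counts in each e2e3 library, at least 4.34-fold higher against a floor of 3 counts per library. Together with MYB51, a regulator of indole glucosinolates, they made 4 higher members of 16, against 9.0% of all genes. DESeq2 gave no adjusted p for CYP71A12, PAD3 or CYP71A13. The glucosinolate genes CYP79B2, CYP79B3 and CYP83B1 were not called. PEN3, a plasma membrane transporter gene of the salicylate and defence list, stood at 409.9 and 407 CPM in e1e2 and 525 and 516 CPM in e2e3, a difference of 0.35 (SE 0.04, adjusted p = 1.08e-16). It lies within 500 kb of E1 ALPHA. PAL1 and PAL2, which open the phenylpropanoid pathway, gave 0.18 (SE 0.04, adjusted p = 0.000102) and 0.19 (SE 0.04, adjusted p = 0.000273).

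Lists close to the study's question differed in their share of called genes, beside 14.8% of all genes. The ethylene signalling and ethylene response lists lay slightly above that share and ethylene biosynthesis further above it. The histone acetylation list lay below it. Of 18 ethylene signalling genes 1 was higher and 2 were lower, namely RAN1 at 0.13, ETP2 at -0.49 and ENAP1 at -0.27. None of the 18 was called without e2e3 replicate 2. Of 19 ethylene response genes 1 was higher and 2 were lower, the largest being EXPA12 at 2.3 and 2.52 CPM in e1e2 and 0.575 and 1.01 CPM in e2e3, a difference of -1.55 (SE 0.33, adjusted p = 0.000104). HDA6, a histone deacetylase gene, was the only one of 20 genes of histone acetylation to be called. It stood at 31.1 and 29.6 CPM in e1e2 and 36.7 and 35 CPM in e2e3, a difference of 0.24 (SE 0.08, adjusted p = 0.029). HDA6 was not called under library size scaling, in a fit of the 4 air libraries alone or in DESeq2. No gene of the silencing list (18 tested), the jasmonate list (15) or the aliphatic glucosinolate list (5) was called in edgeR with TMM scaling or in DESeq2, with 2, 3 and 1 members at an unadjusted p under 0.05 in edgeR. Library size scaling called 1 silencing and 1 jasmonate gene lower, and 1 jasmonate gene was lower without e1e2 replicate 1. One clock gene of 15 was higher and 1 was lower. Ethylene biosynthesis gave 3 higher of 15, all of them ACC oxidase genes, EFE (ACO4) at 0.19, ACO5 at 0.20 and ACO3 (AT1G12010) at 0.45. The count of 3 was 1 without e2e3 replicate 2. Of 15 plastid fatty acid genes 2 were lower and 1 was higher. Heat shock genes gave a higher share, with 4 of 13 lower and 1 higher. The lower count was 2 without e1e2 replicate 1, e1e2 replicate 2 or e2e3 replicate 1, and 1 in DESeq2, which gave no adjusted p for 7. The list includes HSP70 (AT3G12580) at -0.29 (SE 0.05, adjusted p = 3.29e-07) and HSP17.6A (AT5G12030) at 0.51 (SE 0.10, adjusted p = 0.000328).

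The largest increases at a mean of at least 5 CPM began with AT2G04070, a MATE transporter gene, at 0.618 and 0.63 CPM in e1e2 and 9.41 and 8.89 CPM in e2e3, a difference of 3.85 (SE 0.29, adjusted p = 8.10e-27). After E1 ALPHA came AT3G54530, at 1.24 and 1.42 CPM in e1e2 and 9.2 and 7.09 CPM in e2e3 and 2.59 (SE 0.25, adjusted p = 1.61e-18), and AT3G54520, at 2.74 and 2.44 CPM in e1e2 and 15.1 and 12.2 CPM in e2e3 and 2.39 (SE 0.18, adjusted p = 4.13e-26). These 2 uncharacterised genes lie side by side on the minus strand of chromosome 3, from 20183517 to 20187637. PXMT1, a methyltransferase gene, stood at 24.9 and 24.2 CPM in e1e2 and 94.4 and 86.9 CPM in e2e3, a difference of 1.88 (SE 0.07, adjusted p = 8.59e-67), and GSTF6, a glutathione transferase gene with a near-identical copy, at 6.01 and 7.72 CPM in e1e2 and 24.5 and 20.6 CPM in e2e3, a difference of 1.70 (SE 0.13, adjusted p = 1.47e-25). AT5G37940, a dehydrogenase gene, stood at 1.77 and 1.58 CPM in e1e2 and 6.61 and 7.66 CPM in e2e3, and CYP716A2 and the RNA gene AT3G05945 followed with log2 differences of 1.76 and 1.33.

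Among genes with a mean of at least 5 CPM and no overlap, the largest decrease was that of AT1G64795, an uncharacterised gene on the plus strand of chromosome 1 (24082579 to 24082848), at 13.6 and 13.2 CPM in e1e2 and 1.15 and 0.338 CPM in e2e3, a difference of -4.25 (SE 0.25, adjusted p = 9.82e-39). It lies inside the span of ILA on the other strand. The counting was unstranded and left out reads shared by overlapping genes, so the strand of the reads counted for AT1G64795 is not known. Among the next were GRP9, a glycine-rich protein gene, at 9.81 and 8.9 CPM in e1e2 and 2.15 and 2.59 CPM in e2e3 and -1.96 (SE 0.20, adjusted p = 2.27e-17), and AT2G05510 of the same family, at 60.4 and 60.9 CPM in e1e2 and 25.5 and 27.6 CPM in e2e3 and -1.19 (SE 0.07, adjusted p = 3.31e-39). AT3G25190, annotated as a vacuolar iron transporter, stood at 14.7 and 16.2 CPM in e1e2 and 4.53 and 5.35 CPM in e2e3, a difference of -1.63 (SE 0.15, adjusted p = 1.64e-19). AT5G18600 (thioredoxin superfamily), GLYI4 (glyoxalase family), SLAH1 (anion channel family) and the RNA gene AT4G04223 gave -1.51, -1.40, -1.36 and -1.48. The 10 smallest adjusted p-values also took in EXT4, an extensin gene, at 520.3 and 547 CPM in e1e2 and 969.6 and 962 CPM in e2e3 and 0.86 (SE 0.03, adjusted p = 2.06e-62), the extensin-like gene AT3G54580 at 0.73, the glutathione transferase gene GSTU25 at 42.9 and 44.3 CPM in e1e2 and 109.6 and 104 CPM in e2e3 and 1.29 (SE 0.06, adjusted p = 3.48e-53), and AT5G04120, of the phosphoglycerate mutase family, at 94.3 and 91.9 CPM in e1e2 and 192 and 201 CPM in e2e3 and 1.08 (SE 0.05, adjusted p = 7.28e-54). No gene had 1 count or fewer in all 4 libraries of a line, ethylene included, and at least 1 CPM on average over the 4 libraries of the other.

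**Figure D4:**
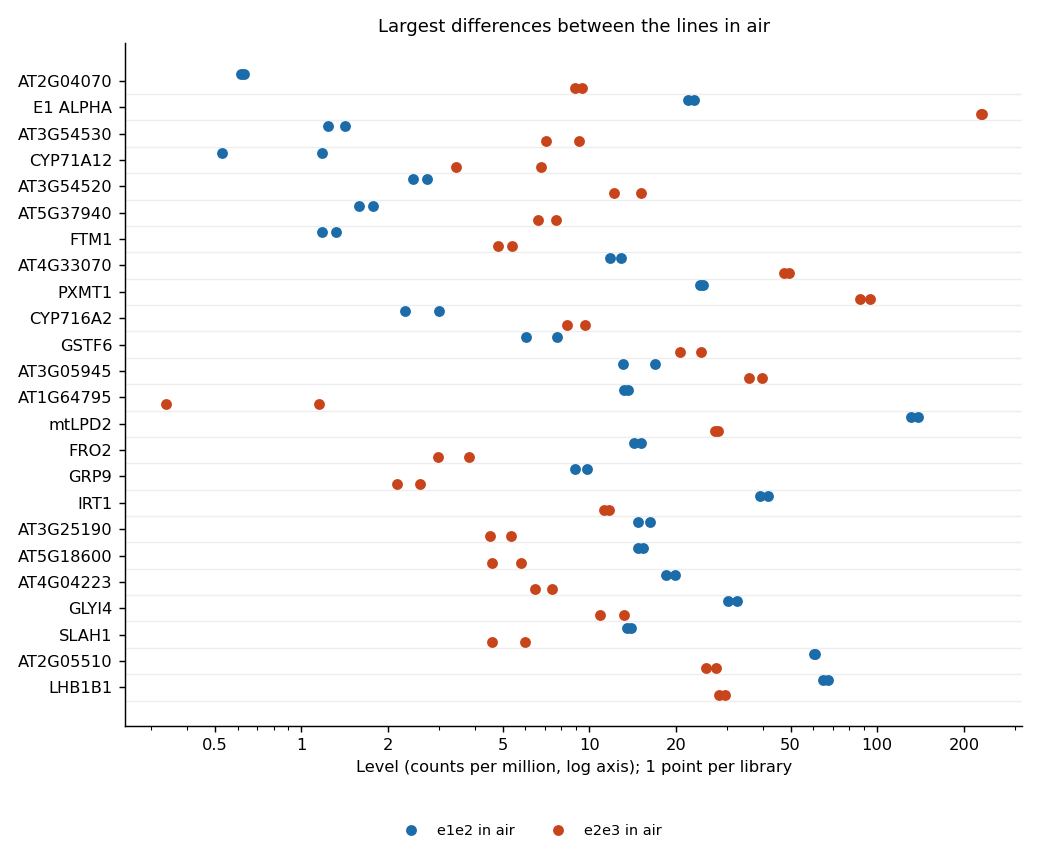
Levels in CPM on a log axis of the 12 genes with the largest increase and the 12 with the largest decrease in e2e3 in air, among called genes with a mean of at least 5 CPM in the higher group and no overlap of libraries, 1 point per library, blue for e1e2 and orange for e2e3. The genes were chosen for this separation, so the gaps themselves are no finding; most of these genes lie under 50 CPM.

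Called genes were spread over the genome. The share called was 14.0% to 15.6% on the 5 nuclear chromosomes and 25.6% of the 78 tested genes of the plastid genome. Within 500 kb of the mitochondrial PDC genes it ran from 11.2% of 206 genes around AT1G54220 to 19.2% of 250 around LTA3, with 14.4% of 139 around E1 ALPHA and 16.1% of 218 around mtLPD2, against 14.8% of all. Among nuclear windows of 1 Mb with at least 30 tested genes, the highest share was 25.0% of 48 genes, from 2 to 3 Mb on chromosome 2, and that window holds AT2G05510. Of protein-coding genes 15.1% were called, against 7.03% of 128 pseudogenes and 2.55% of 157 long non-coding RNA genes.

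The same lines were set side by side in ethylene, in libraries outside the air contrast, though 1 fit gave both. There 1325 genes (6.56%) were called, of which 857 genes (4.24%) were higher in e2e3 and 468 (2.32%) were lower. Of the 2995 genes called in air, 754 (25.2%) were called with the same sign in ethylene, which is 56.9% of the genes called there, and 2410 (80.5%) had the same sign. Of the 123 genes called at 2-fold or more in air, 101 had the same sign and 55 were called with it. Only 27 genes were called in both gases with opposite signs. A test of the difference between the gaps, which uses the air libraries again, called 566 genes (2.80%), of which 256 (1.27%) were above 0 and 310 (1.54%) below.

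Most photosynthesis genes differed between the gases. Their median log2 difference was -0.30 in air and -0.05 in ethylene, 11 of 42 were called lower in ethylene, and the difference between the gaps was called for 34 of 42, all below 0, against 1.54% of all genes and 19.9% of the 1177 genes called lower in air. RBCS1A stood at 4046 and 4129 CPM in e1e2 and 3384 and 3563 CPM in e2e3 in air and at 4198 and 4241 CPM in e1e2 and 4147 and 4315 CPM in e2e3 in ethylene. LHCB2.1 gave -0.42 (SE 0.04, adjusted p = 4.83e-16) in air and 0.05 (SE 0.05, adjusted p = 0.609) in ethylene, a gap between the gases of -0.47 (SE 0.06, adjusted p = 1.16e-08). The root hair list held 11 higher genes in air and 4 in ethylene, at medians of 0.35 and 0.22, and the difference between the gaps was called for none of its 15 genes. IRT1 stood at 64.3 and 67.5 CPM in e1e2 and 28.5 and 28 CPM in e2e3 in ethylene, so its gap was smaller there, by -0.60 (SE 0.12, adjusted p = 0.000377). PDC1 gave 1.28 (SE 0.08, adjusted p = 2.01e-38) in ethylene. KIN2 had opposite signs, at -0.40 in air and 0.37 (SE 0.04, adjusted p = 1.39e-13) in ethylene, where it stood at 147 and 150.3 CPM in e1e2 and 183 and 202 CPM in e2e3.

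**Figure D5:**
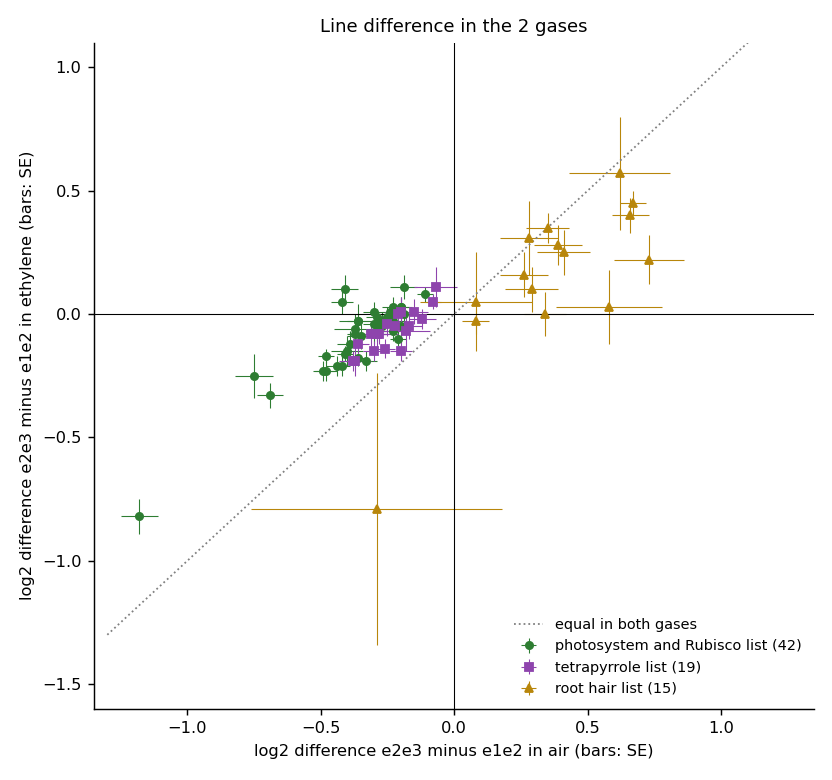
The log2 difference e2e3 minus e1e2 in ethylene against that in air for the photosystem and Rubisco, tetrapyrrole and root hair lists, 1 point per gene with SE bars, and a dotted line where both are equal. The photosystem and tetrapyrrole genes lie left of 0 and mostly above the dotted line, at medians of -0.30 and -0.22 in air, while the root hair genes lie mostly on the right.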

How the data were processed

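Etiolated seedling poly(A) RNA was sequenced in 8 libraries, 2 per line and gas. The authors deposited raw counts of read pairs per gene, made with featureCounts 2.0.1 on Araport11 genes, unstranded and without multi-mapping reads or reads shared by overlapping genes, per the file headers. Per the submitters' processing notes, the tools, listed without roles, included STAR, DESeq2, Trim Galore and FastQC, and the build was TAIR10. Each line was counted in a table of its own, so the line and the counting run coincide. Symbols and upstream sequences came from RefSeq (TAIR10.1), where 99.5% of matched loci have the same coordinates.

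edgeR 4.0.16 (R 4.3.3) filtered genes with filterByExpr, scaled by TMM and fitted all 8 libraries in 4 groups with a robust quasi-likelihood model. Contrasts were e2e3 minus e1e2 in air, in ethylene, and the first minus the second, each adjusted over all 20193 genes tested. The biological coefficient of variation was 2.75% at 4 residual degrees of freedom. Pooling over genes added a median of 218 prior degrees of freedom per gene. At 1 count a gene stood at 0.0563 to 0.0883 CPM in the air libraries, which sets the precision of low genes. The fit was tested on simulated data. Alternatives were library size scaling, RLE, no filter, the 4 libraries of a gas, a replicate block, DESeq2 1.42.0 and leaving out each library.

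The 35 gene lists and the tests were chosen with earlier results of these data known. Named genes are list members, the 12 higher and 12 lower genes with the largest change at a mean of at least 5 CPM without overlap, the 10 with the smallest adjusted p, and families picked afterwards. The authors' own ethylene fold-change tables were not used, and 0 sample columns were left out.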

Additional observations from a re-analysis of the deposited data

Results flagged for a closer look

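For 50 of the 161 genes named with values, the gap between the lines in air differed from that in ethylene in edgeR's test of the difference with Benjamini-Hochberg adjustment over all genes, against 2.80% of all genes tested and 15.1% of the 2995 genes called in air, to which 152 of the 161 belong. Each value below is the gap in air minus the gap in ethylene on the log2 scale. The test uses the air libraries again, with 2 libraries per group, too few for a check of whether 1 library stands apart within its group.

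Photosynthesis and chlorophyll genes had values below 0, meaning a more negative log2 difference in air than in ethylene: LHB1B1 (LHCB1.4) -0.36, LHCB1.1 -0.36, CAB1 (LHCB1.3) -0.30, LHCB2.1 -0.47, LHCB2.3 -0.51, LHCB6 -0.23, LHCA1 -0.25, RBCS1A -0.24, RBCS2B -0.19, GUN5 -0.19, CHLM -0.24 and PORA -0.21. The iron genes IRT1 and FRO2 gave -0.60 and -0.72, and mtLPD2 gave -0.32. Among the largest decreases, AT1G64795 gave -1.62, AT5G18600 -1.13, GLYI4 -0.65 and AT2G05510 -0.75.

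Values above 0 belonged to genes that were higher in e2e3 in air by more than in ethylene. PDC1 (AT4G33070) gave 0.69, FTM1 1.68, RAP2.12 0.18, PXMT1 0.79, GSTF6 0.79, GSTU25 0.48 and NADP-ME1 0.48. CYP71A12 and PAD3, both low, gave 2.15 and 1.68. ARF7 gave 0.24, NRT1.1 0.21, DIN2 0.40 and the ACC oxidase gene AT1G12010 0.88, whose log2 difference was 0.45 in air and -0.42 in ethylene. The cuticle wax gene KCS6 gave 0.17 and the tubulin gene TUB1 0.36.

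Seed, abscisic acid and stress genes lay on both sides. RD29B gave 0.49, LEA7 0.43, LTI30 0.26, HAI1 0.47, ABI1 0.18 and OLEO2 0.45, while KIN2 gave -0.78, SESA2 -0.74, MLS -0.26, HSP70 -0.41, NIA1 -0.20, SEN5 -0.25, EXPA12 -1.22 and ENAP1 -0.39. LEA7 was called in both gases with opposite signs, 0.24 in air and -0.19 in ethylene. Of the plastid genome, ATCG00480 gave 0.73 and ATCG00020 gave -1.01. The causes of these differences were not tested.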

How the results depend on the processing

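DESeq2, library size scaling and single libraries moved the counts most. Under library size alone 1184 genes were called higher and 1756 lower, 40.3% of the calls higher instead of 60.7%, and 78.8% of the calls were shared. DESeq2 called 941 higher and 542 lower, 49.4% of the calls shared, with 21 higher and 21 lower at 2-fold, 571 in ethylene, 231 for the difference between gases and 7 higher root hair genes. Leaving out 1 library gave 1039 to 1787 higher genes, 871 to 1158 lower, 52 to 62 and 58 to 79 at 2-fold, 638 to 1586 in ethylene, 240 to 545 for the difference between gases, 9 to 14 expansin and XTH genes and 6 to 11 root hair genes. The ethylene count was 711 and 655 without e1e2 ethylene replicate 1 and 2 and 638 without e2e3 ethylene replicate 2, and the difference count was 263, 240 and 242 without those libraries and 367 without e2e3 air replicate 1. RLE scaling, no filter and the 4 air libraries kept the higher and lower counts within 1.5 times. A fit of the 4 air libraries alone called 1378 higher and 1155 lower. Same-numbered libraries did not deviate together (correlations of -0.0299 to 0.000911), and with a replicate block 1697 genes were higher and 1087 lower, 2782 of them shared.

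Of the 152 named genes called in air, 138 stayed called under library size alone, 148 with the block and 124 to 152 without 1 library. DESeq2 kept 117 of the 143 to which it gave an adjusted p. Signs turned only in genes that were not called: mtLPD1 was -0.04 under library size alone, -0.00 with no filter, -0.01 with the 4 air libraries, and -0.06 to 0.06 without 1 library; AT1G54220 ranged from -0.11 to 0.04 and RHD6 from -0.08 to 0.23 without 1 library, turning without e1e2 air replicate 2. The causes were not tested. Depth limits genes of a few counts, such as CYP71A13 and CYP82C4.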

Other observations

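The families below were picked after their values were seen, by symbol or by words in the RefSeq product name, so the counts describe these libraries and carry no test. Many cell wall genes outside the lists above were higher in e2e3. Of 42 tested genes with extensin in the product name 24 were higher and 2 were lower, and all 7 EXT genes were higher, by 0.47 to 0.86 on the log2 scale. All 9 tested genes with an RHS (root hair specific) symbol were higher, at a median of 0.56, though RHS18 is also in the root hair list, and 4 were without e1e2 replicate 2, 5 without e2e3 replicate 2 and 4 in DESeq2. Of 52 peroxidase superfamily genes 25 were higher and 2 were lower, and of 15 FLA genes, which encode arabinogalactan proteins, 10 were higher and none was lower, with 6 higher without e2e3 replicate 2. The tubulin genes gave 10 of 15 higher and none lower, 6 higher under library size scaling or without e2e3 replicate 2, with TUB1 at 216 and 192 CPM in e1e2 and 274 and 287 CPM in e2e3, a difference of 0.46 (SE 0.04, adjusted p = 2.33e-20). KCS genes, which elongate fatty acids for waxes and other lipids, gave 9 of 15 higher and none lower, with KCS6 at 813 and 782 CPM in e1e2 and 1013 and 1024 CPM in e2e3, a difference of 0.35 (SE 0.03, adjusted p = 6.25e-19). These families sit beside 9.0% higher among all genes.

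Some members of detoxification families were higher, beside 9.0% higher and 5.83% lower among all genes. Glutathione transferases gave 10 of 23 higher and 1 lower in the GSTU class and 6 of 8 higher and none lower in the GSTF class, and DESeq2 called 7 and 4 higher. MATE transporter genes gave 11 of 43 higher and 3 lower. That was 7 higher and 5 lower under library size scaling, 6 higher without e1e2 replicate 2, 6 and 5 without e2e3 replicate 1 and 2, and 3 higher and 1 lower in DESeq2, which gave no adjusted p for 13. FRD3, a MATE citrate exporter that moves iron to the shoot, stood at 23.2 and 20.2 CPM in e1e2 and 15.5 and 14 CPM in e2e3, a difference of -0.56 (SE 0.11, adjusted p = 9.32e-06).

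Ribosomal protein genes were lower in e2e3 in air by a small amount. Of 307 tested nuclear genes with ribosomal protein in the product name 101 were lower and 2 were higher, at a median of -0.12, against 5.83% lower among all genes. Library size scaling called 143 of them lower, and DESeq2 called 57 lower. AT3G09200, for a protein of the ribosomal stalk, stood at 346 and 336 CPM in e1e2 and 276 and 299 CPM in e2e3, a difference of -0.24 (SE 0.04, adjusted p = 3.83e-08). In ethylene 12 of the 307 were higher and none was lower, against 4.24% and 2.32% of all genes, at a median of 0.02. The difference between the gaps was called below 0 for 44, against 1.54% of all genes. The list includes plastid and mitochondrial ribosomal proteins made in the nucleus, and members with close copies are uncertain. As a match of names, it also takes in genes of other function, such as LOS1 of the elongation factor G family.

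Of 78 tested genes of the plastid genome 19 were lower and 1 was higher, at a median of -0.51, with 5 called lower without e2e3 replicate 2 and 6 in DESeq2, which gave no adjusted p for 42. ATCG00020, a photosystem II core gene, stood at 7.95 and 5.67 CPM in e1e2 and 4.09 and 3.1 CPM in e2e3, a difference of -0.93 (SE 0.21, adjusted p = 0.000219). ATCG00480, an ATP synthase subunit gene, stood at 119 and 119 CPM in e1e2 and 144 and 137 CPM in e2e3, a difference of 0.24 (SE 0.05, adjusted p = 8.26e-05). The libraries were made by poly(A) selection, which most plastid transcripts escape, and plastid genes held 0.098% to 0.149% of the counts. Among nuclear genes, 7 of 13 PTAC genes, for proteins bound to plastid DNA, were lower and none was higher, against 5.83% and 9.0% of all genes. PTAC12 stood at 44.1 and 41.7 CPM in e1e2 and 31.5 and 32 CPM in e2e3, a difference of -0.43 (SE 0.08, adjusted p = 1.15e-06).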
